A study of Mus musculus with 8 samples.

Results

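The tumour necrosis factor (TNF) superfamily was followed in mouse tibialis anterior muscle after oral dosing with Porphyromonas gingivalis. Members were taken by the name printed on the array: Tnf, Lta, Ltb, Ltbr, Cd27, Cd40, Fas and every gene whose name starts with Tnfsf (ligands) or Tnfrsf (receptors). That rule found 66 of the 56605 distinct probes, carrying 39 names, and 25 of the 39 genes were bright enough to be tested. TNF superfamily ligands are mostly trimeric membrane proteins that can be shed, and they cluster receptors on the target cell. Receptors with a death domain can assemble caspase-activating complexes, whereas others bind TRAF adaptors and activate NF-kappaB, and decoy receptors hold ligand without a full signal. In skeletal muscle the family is known for TNF itself, an inflammatory cytokine linked to wasting, and for TWEAK (Tnfsf12) with its receptor Fn14 (Tnfrsf12a), a pair linked to muscle injury and atrophy.

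RNA came from the tibialis anterior, a lower-leg muscle, of male C57BL/6J mice that were 8 weeks old at the start and 14 weeks old at the end. The control group and the group dosed orally with P. gingivalis for 6 weeks each gave 4 samples, 1 array per sample, and no genetic alteration is given for either group. The protocol, common to both groups, names High-fat diet 32 as the feed, and the bacteria were delivered by feeding needle in 100 µL of physiological saline. It does not say what controls received by needle, and it names the dosed mice by codes that no sample label repeats. Whether every sample had the high-fat diet is not clear from the labels. The labels do not say that each sample is a separate mouse, so the p-values measure the spread between these samples, which may be partly technical.

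The deposited sources disagree on which array belongs to which group, and this comes before every result. Each of the 8 columns of the deposited value table matched 1 scanner file, at a correlation of 0.833 or more against at most 0.0784 for the next best file. Only 2 columns matched the file of the same sample, and 4 matched a file of the other group. Arrays control 1, control 2, P. gingivalis 3 and P. gingivalis 4 have the same group in both sources, and the other 4 have opposite groups. The labels of the scanner files are used throughout, and the result under the value table's labels is given in its own section. All 8 arrays lie on 1 slide, with the scanner-file controls in row 1 and the P. gingivalis arrays in row 2, so the effects of row and of group cannot be told apart. The groups of the value table split the same slide by column, with the first pair of slide columns against the last pair, so the same holds for them and the slide column. Before scaling, the 75th percentile of signal ran from 275 to 306 in controls and from 238 to 255 after P. gingivalis, a difference with an exact two-sided permutation p of 0.0286, the smallest that 70 assignments allow. Between 56.3% and 59.3% of spots per array were well above background, and none was saturated. Muscle fibre markers (Acta1, Ckm, Myh4, Mylpf, Tnnt3) were well above background on every array, with a summed linear level of 3364 to 3717 times the 75th percentile in controls and 3715 to 3931 after P. gingivalis.

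The probes are 60-base oligonucleotides, and the first 30 bases of those on which the results below turn are shown here 5′ to 3′, read from the scanner files, because several genes had probes that read differently. Coordinates are those printed on the array, in build mm9 per the file headers, and the exons they fall in were not looked up.
Tnf, well above background on all arrays (chr17:35336967-35337026, minus strand): ttattgtctactcctcagagcccccagtct
Tnf, below the background mark on all arrays (chr17:35336795-35336854, minus strand): tgggctttccgaattcactggagcctcgaa
Tnfrsf12a (chr17:23812746-23812805, minus strand): agccttccaaggtgtccaattgccctatct
Cd27 (chr6:125183200-125183259, minus strand): tgtcatggtcatcagaaccctttcctgtga
Tnfrsf1a, brighter probe (chr6:125312376-125312435, plus strand): agcaatctttgtatcaattatatcacacta
Tnfrsf1a, dimmer probe (chr6:125311454-125311513, plus strand): tcctagtaactggcacttcatgccacctgt
Tnfsf10, brighter probe (chr3:27241288-27241347, plus strand): agcgcccctgacaacagcgcccctgacaac
Tnfsf10, dimmer probe (chr3:27238508-27238567, plus strand): gggaaatgttaaactttgtaaactctgaaa
Tnfsf13b, brighter probe (chr8:10026129-10026188, plus strand): actttactactttcagttggatgcctttcc
Tnfsf13b, dimmer probe (chr8:10035561-10035620, plus strand): cgttgaatctgatccaaaccaggaaatata
Fas, brightest probe (chr19:34402164-34402223, plus strand): gaagaccttccattgatggacagttctttt
Fas, probe placed on another chromosome (chr4:40555124-40555183, minus strand): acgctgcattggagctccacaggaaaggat
The 30 bases shown of the brighter Tnfsf10 probe are a 15-base unit repeated, and the whole probe holds 66.7% G and C against 35.0% in the dimmer one. One of the probes named Fas lies on chromosome 4 by its printed coordinates, whereas RefSeq places the gene on chromosome 19.

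Of the 39 members, 25 had a probe well above background on all 8 arrays, and 14 had none on at least 4 arrays and were not tested. Among those 14, Ltb (lymphotoxin beta) was well above background on 2 control arrays and on no P. gingivalis array. Lta (lymphotoxin alpha) and Tnfrsf13c, the BAFF receptor of B cells, were well above background on 1 control array each, and Tnfrsf18 and Tnfrsf26 on 1 P. gingivalis array each. The other 9 stayed below that mark on all 8 arrays. They were the ligands Tnfsf4, Tnfsf11 (RANKL), Tnfsf14 and Tnfsf18, and the receptors Cd40, Tnfrsf8, Tnfrsf9, Tnfrsf11b (osteoprotegerin, a soluble decoy for RANKL) and Tnfrsf17. No member was well above background on all arrays of 1 group and on none of the other.

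**Figure D1:**
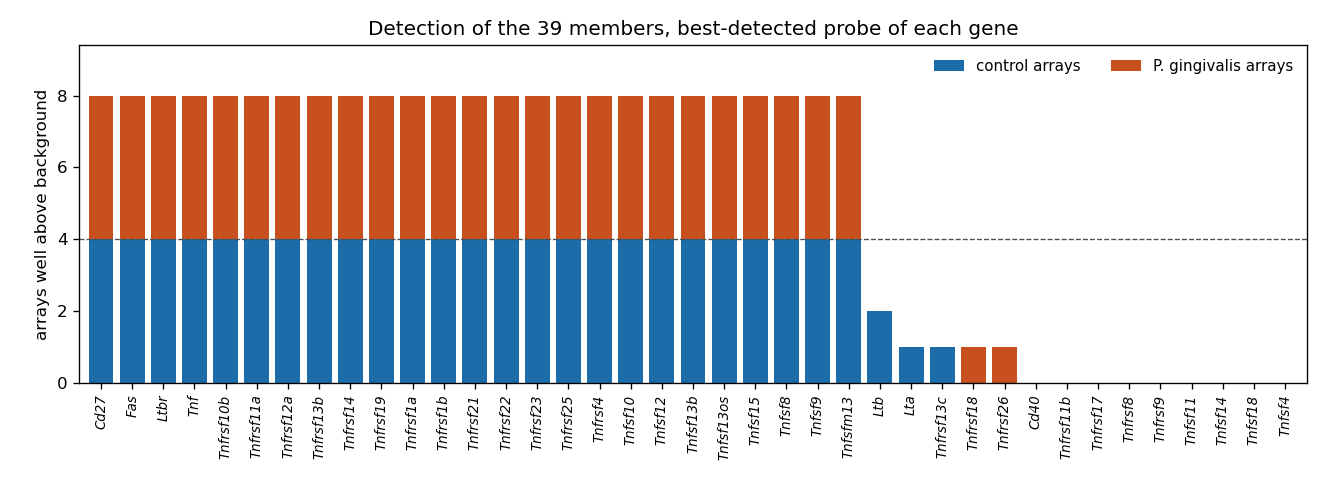
For each of the 39 members on the x axis, the bar gives the number of arrays on the y axis (0 to 8) on which its best-detected probe was well above background, split into control and P. gingivalis arrays. The dashed line marks the minimum of 4 arrays for testing: 25 genes stand at 8 and the other 14 at 2 or fewer.

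Levels below are log2 signal minus the 75th percentile of the array, so a level of 0 is the 75th percentile, and differences are P. gingivalis minus control on that log2 scale. Where a gene has several tested probes, the brightest over all arrays represents it, and levels of different probes are not compared. Of the 25 tested members, 11 were higher and 14 lower after P. gingivalis, with differences from -0.56 to 0.64 and a median of -0.046, against -0.014 over the 16034 genes tested. For 17 of the 25 the difference was within 0.15 of 0. No member passed an adjusted p of 0.05 (Benjamini-Hochberg over all 31649 probes), and the lowest adjusted p among the representative probes was 0.33. Over the whole array 0% of probes passed with limma, although 3544 had an unadjusted p under 0.05. With an intensity trend in the variance limma called 2 probes, and after normexp background correction it called 15. Without a filter on dim probes it called 2, and in the value table with columns matched to arrays 1. None of these probes represented a member.

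Unadjusted p-values under 0.05 were found for 5 of the 25 members (20%), against 10.7% of all genes tested. Cd27 was the 1 gene on the higher side, where the share over all genes was 4.86%. Tnfrsf12a, Tnfrsf22, Tnfrsf1a and Tnfrsf10b were on the lower side, where that share was 5.83%. Groups that did not overlap were found for 2 of the 25 members (8%), Tnfrsf1a and Tnfrsf22, both lower after P. gingivalis, against 7.07% of all genes. That share lies close to the background. The split of the 5 depended on scaling, with 1 higher and 3 lower after quantile normalization (10.9% of all genes in either direction), 4 higher and 3 lower after normexp (26.6% of all genes), and 1 higher and 2 lower when the percentile was taken over distinct probes (10.5% of all genes). After normexp the members' share was close to that of all genes.

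**Figure D2:**
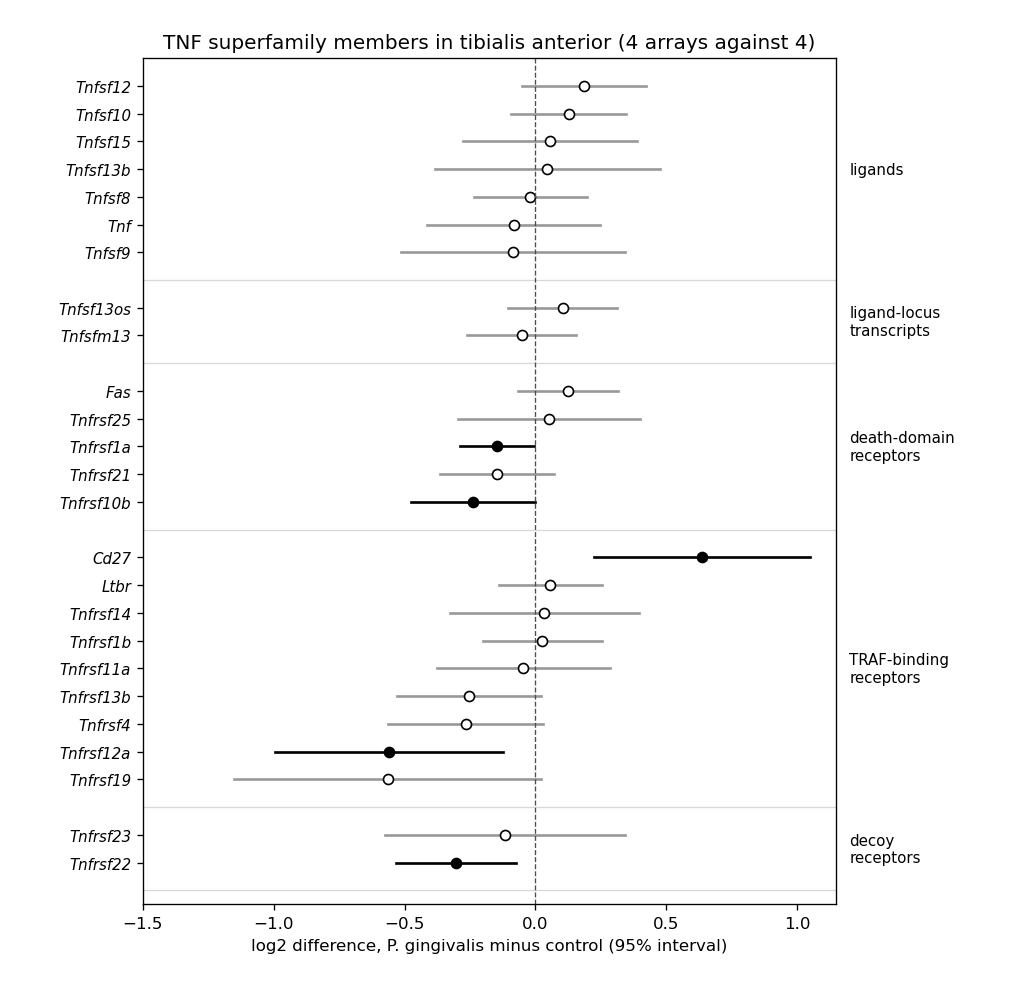
Each row is 1 of the 25 tested members, grouped by role, with the log2 difference (P. gingivalis minus control) on the x axis and its 95% interval from limma as the bar. Filled points have an unadjusted p under 0.05: Cd27 at 0.64, and Tnfrsf12a, Tnfrsf22, Tnfrsf10b and Tnfrsf1a between -0.56 and -0.15, although Tnfrsf22 stood at 0.03 after normexp.

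Of 13 ligand genes, 7 were tested, and on their representative probes 4 were higher and 3 lower, with a median difference of 0.046 and none under an unadjusted p of 0.05. A second probe of Tnfsf10 was lower, with an unadjusted p of 0.043 (its values are given with the gene). Tnf, the inflammatory cytokine that binds Tnfrsf1a and Tnfrsf1b, read -1.18, -1.17, -0.74 and -0.89 on control arrays 1 to 4 and -1.37, -1.16, -0.85 and -0.92 on P. gingivalis arrays 1 to 4. The groups overlapped almost fully, and within each group arrays 1 and 2 were lower than arrays 3 and 4. The difference was -0.08 (SE 0.14, 95% interval -0.41 to 0.25, adjusted p = 0.85). It was at 0.001 without control 3 and 0.015 without P. gingivalis 1. The second Tnf probe, 3′ of the first on the minus strand, read between -7.46 and -7.09 and stayed below the background mark on all 8 arrays. All Tnf differences in the text therefore rest on the first probe alone, and why the probes read so differently was not tested.

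Tnfsf12 (TWEAK) read -1.44, -1.39, -1.10 and -1.44 in controls and -1.19, -1.29, -1.20 and -0.96 after P. gingivalis. All 4 P. gingivalis arrays were above 3 of the controls, and control 3 lay inside the P. gingivalis range. The difference was 0.19 (SE 0.10, adjusted p = 0.53). Tnfsf12 shares its locus with a pair of other named transcripts, the read-through Tnfsfm13, with a difference of -0.05 (SE 0.09), and the antisense Tnfsf13os, with 0.10 (SE 0.09). Whether the probes of these names also read other transcripts of the locus was not looked up.

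Tnfsf10 (TRAIL, the ligand of Tnfrsf10b) had probes on both sides of 0. The brighter probe, the one with the repeated unit, read -1.30, -1.21, -1.60 and -1.41 in controls and -1.15, -1.25, -1.39 and -1.22 after P. gingivalis, a difference of 0.13 (SE 0.10, adjusted p = 0.64). The dimmer probe read -1.92, -1.41, -2.09 and -1.54 in controls and -2.69, -2.38, -2.03 and -1.87 after P. gingivalis, a difference of -0.50 (SE 0.21, unadjusted p = 0.043, adjusted p = 0.44). On that probe P. gingivalis arrays 1 and 2 were below every control, and arrays 3 and 4 lay within the control range. Taking the mean of both probes gave -0.19 for the gene.

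Tnfsf13b (BAFF, a survival factor of B cells) read -3.45, -3.65, -4.04 and -3.94 in controls and -3.31, -3.62, -4.05 and -3.93 after P. gingivalis, a difference of 0.05 (SE 0.19). Both groups showed the same pattern, with arrays 1 and 2 above arrays 3 and 4. The remaining tested ligands differed by 0.06 for Tnfsf15 (TL1A, SE 0.15), -0.02 for Tnfsf8 (CD30 ligand, SE 0.09) and -0.09 for Tnfsf9 (4-1BB ligand, SE 0.19). Tnfsf8 turned to 0.01 after quantile normalization and 0.10 after normexp, and Tnfsf9 to 0.10 after normexp. Lta read -5.06, -5.49, -5.82 and -6.42 in controls and -5.83, -5.92, -5.77 and -5.35 after P. gingivalis. Ltb read -5.46, -4.67, -6.43 and -4.96 in controls and -6.49, -6.16, -6.89 and -6.10 after P. gingivalis, and its 2 readings above background were controls 2 and 4. Both Tnfsf11 probes stayed between -7.39 and -6.98 on all 8 arrays. Readings of these 3 genes are mostly below the level at which the scanner called signal, so they have no order.

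All 5 receptors with a death domain were tested, 2 higher and 3 lower, with a median difference of -0.15. Tnfrsf1a (TNF receptor 1, the widely expressed receptor for TNF) read 1.59, 1.64, 1.57 and 1.65 in controls and 1.51, 1.42, 1.38 and 1.55 after P. gingivalis. Every P. gingivalis array was below every control, and control 3 and P. gingivalis 4 were the closest pair. The difference was -0.15 (SE 0.06, 1.11-fold lower, unadjusted p = 0.042, adjusted p = 0.43), the smallest of the 5. The dimmer Tnfrsf1a probe did not show it: it read -2.25, -2.16, -1.99 and -2.15 in controls and -2.22, -2.13, -2.14 and -2.02 after P. gingivalis, a difference of 0.01 (SE 0.08, 95% interval -0.16 to 0.19). The mean of the 2 probes gave -0.07 with an unadjusted p of 0.26.

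Tnfrsf10b (the mouse TRAIL death receptor) read -2.08, -2.08, -2.22 and -2.19 in controls and -2.40, -2.63, -2.35 and -2.14 after P. gingivalis. P. gingivalis arrays 1 to 3 were below all controls and array 4 lay among them. The difference was -0.24 (SE 0.10, unadjusted p = 0.049, adjusted p = 0.45), and it had an unadjusted p of 0.085 after quantile normalization and stood at -0.03 after normexp. Leaving out any single array other than P. gingivalis 4 gave an unadjusted p of 0.056 or more. The other probes named Tnfrsf10b stayed below the background mark on all 8 arrays.

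Fas, the receptor for Fas ligand, read 0.45, 0.71, 0.69 and 0.80 in controls and 0.72, 0.80, 0.80 and 0.83 after P. gingivalis, a difference of 0.13 (SE 0.08, adjusted p = 0.59). Control 1 was the low array and control 4 lay within the P. gingivalis range. Another Fas probe on chromosome 19 differed by 0.37 (SE 0.20) and the probe placed on chromosome 4 by -0.18 (SE 0.10), and neither had an unadjusted p under 0.05. Tnfrsf21 (DR6) differed by -0.15 (SE 0.09) on its brighter probe and 0.01 (SE 0.21) on the other. Tnfrsf25 (DR3, the receptor for TL1A) differed by 0.05 (SE 0.15).

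Of 15 receptors that bind TRAF adaptors without a death domain, 9 were tested, 4 higher and 5 lower, with a median difference of -0.046. Tnfrsf12a (Fn14) read 3.83, 3.46, 3.66 and 3.15 in controls and 3.41, 2.78, 2.97 and 2.71 after P. gingivalis. P. gingivalis arrays 2 to 4 were below all controls, and array 1 lay inside the control range. The difference was -0.56 (SE 0.19, 95% interval -0.995 to -0.12, 1.47-fold lower, unadjusted p = 0.018, adjusted p = 0.38). Its direction was the same under quantile normalization (-0.55), normexp (-0.62) and the percentile over distinct probes (-0.54), and leaving out each array gave -0.71 to -0.46. In bulk muscle, fewer cells of a type and less RNA per cell cannot be told apart.

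Cd27, a co-stimulatory receptor of T and B cells, read -4.24, -4.37, -3.90 and -3.71 in controls and -3.24, -3.14, -3.72 and -3.58 after P. gingivalis. P. gingivalis arrays 1 and 2 were the highest, array 4 was above all controls, and array 3 lay just below control 4. The difference was 0.64 (SE 0.18, 95% interval 0.22 to 1.05, 1.55-fold higher, unadjusted p = 0.0072, adjusted p = 0.33). It stayed on that side after quantile normalization (0.66) and normexp (0.28), and between 0.53 and 0.75 when each array was left out. Of 7 T cell markers, 6 had a probe and 4 were tested, 1 higher and 3 lower, and the marker sum was 2.58 to 2.85 times the 75th percentile in controls and 2.35 to 2.76 after P. gingivalis. Cd4 had the lowest p in limma, at -0.23 (unadjusted p = 0.092), and was at -0.23 after normexp (unadjusted p = 0.029). Cd3d differed by 0.08, and by 0.17 after normexp (unadjusted p = 0.038), where 26.6% of all genes were called. Cd2 differed by -0.13 and Cd3e by -0.02, and Cd3g stayed below the background mark throughout. Of 3 B cell markers reported, 2 were tested, both higher (Ms4a1 0.32, Cd79b 0.30) with unadjusted p = 0.12 and 0.165 in limma. After normexp both had groups that did not overlap (0.21 and 0.23, unadjusted p = 0.0071 and 0.0015), and in the value table with columns matched to arrays both had an unadjusted p under 0.05 (0.020 and 0.026). The sum of the reported markers was 0.0955 to 0.127 in controls and 0.118 to 0.174 after P. gingivalis, and Cd79a stayed below the background mark. The part of lymphocyte content in the Cd27 difference was not tested.

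**Figure D3:**
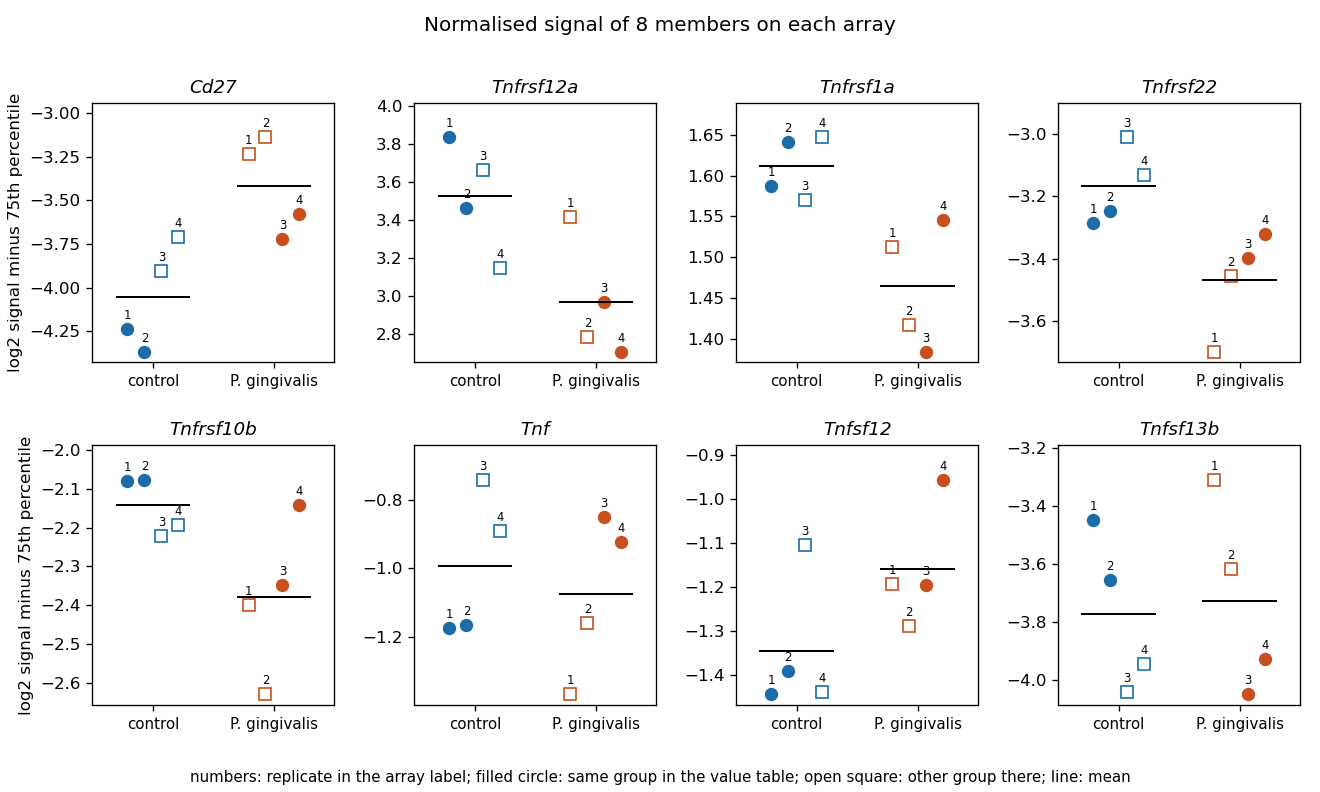
For 8 members, each point is the level on 1 array (y axis, log2 signal minus the 75th percentile, with its own range in each panel) in the control and P. gingivalis groups of the scanner files, and the line is the mean of 4. Open squares are arrays that the value table puts in the other group: in the panels of Tnf and Tnfsf13b arrays 1 and 2 separate from arrays 3 and 4 in both groups, while in Tnfrsf1a and Tnfrsf22 the groups of the scanner files separate.

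Tnfrsf19 (TROY) had 2 tested probes on the same side of 0. The brighter probe read 0.99, 1.41, 0.35 and 0.90 in controls and -0.02, 0.02, 0.73 and 0.66 after P. gingivalis, a difference of -0.56 (SE 0.26, unadjusted p = 0.058, adjusted p = 0.45). Control 3 was below P. gingivalis 3 and 4 on that probe. The dimmer probe read -0.51, -0.56, -0.97 and -0.58 in controls and -1.16, -1.26, -1.05 and -1.10 after P. gingivalis, with no overlap, a difference of -0.49 (SE 0.11, unadjusted p = 0.0019, adjusted p = 0.32). Tnfrsf19 is described here because both probes differed alike, which was seen after the values were known.

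Tnfrsf1b (TNF receptor 2) read -1.56, -1.34, -1.40 and -1.60 in controls and -1.68, -1.41, -1.30 and -1.39 after P. gingivalis, a difference of 0.03 (SE 0.10), and its dimmer probe differed by -0.13 (SE 0.16). Ltbr, the receptor for lymphotoxin alpha-beta and Tnfsf14, read 1.90, 1.76, 1.70 and 1.67 in controls and 1.90, 1.87, 1.62 and 1.87 after P. gingivalis, a difference of 0.06 (SE 0.09). Tnfrsf11a (RANK, the receptor of RANKL) read 2.04, 2.24, 2.19 and 1.67 in controls and 1.999, 2.12, 2.11 and 1.72 after P. gingivalis, a difference of -0.05 (SE 0.14). The other probes of Tnfrsf11a stayed below the background mark, save for a single reading on 1 control array. In these 3 receptors the groups overlapped across most of their range. The other tested receptors of the class differed by 0.03 for Tnfrsf14 (HVEM, SE 0.16), -0.25 for Tnfrsf13b (TACI, SE 0.12, but 0.03 after normexp) and -0.27 for Tnfrsf4 (OX40, SE 0.13). Cd40, the receptor by which T cells activate antigen-presenting cells, read between -6.11 and -5.07 in controls and between -6.33 and -4.80 after P. gingivalis, never well above background.

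Decoy or soluble receptors comprise Tnfrsf22, Tnfrsf23 and Tnfrsf11b. Tnfrsf22, a mouse decoy receptor for TRAIL, read -3.29, -3.25, -3.01 and -3.13 in controls and -3.70, -3.46, -3.40 and -3.32 after P. gingivalis. Every P. gingivalis array was below every control, by a small gap between control 1 and P. gingivalis 4. The difference was -0.30 (SE 0.10, 1.23-fold lower, unadjusted p = 0.016, adjusted p = 0.37), and it turned to 0.03 after normexp background correction. By its other probe, Tnfrsf22 stayed below the background mark on all 8 arrays. Tnfrsf23, its neighbour on chromosome 7 and also a TRAIL decoy, differed by -0.12 (SE 0.20). Tnfrsf11b read -7.25 to -4.91 in controls and -7.07 to -5.09 after P. gingivalis, never well above background.

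Across the ligand and receptor pairs of the family, no pair had both partners under an unadjusted p of 0.05 on the representative probes. Only by its dimmer probe was TRAIL under that mark, as were its death receptor Tnfrsf10b and its decoy Tnfrsf22, all lower after P. gingivalis. After normexp Tnfrsf22 lay on the other side of 0. Under the groups of the value table the dimmer TRAIL probe was at 0.22, Tnfrsf10b at 0.07 and Tnfrsf22 at 0.21, all higher. TWEAK was at 0.19 where its receptor Fn14 was at -0.56. TRAIL was at 0.13 or -0.50 by probe, its death receptor at -0.24 and its decoys at -0.30 and -0.12. TNF was at -0.08 with its receptors at -0.15 (Tnfrsf1a) and 0.03 (Tnfrsf1b). BAFF was at 0.05 and its receptor TACI at -0.25, with the BAFF receptor and BCMA (Tnfrsf17) not tested. Of the 8 genes with several tested probes, 3 had all probes on the same side of 0 and 5 on both sides.

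With the 8 arrays regrouped by the value table's labels, the same 25 probes gave other members. Unadjusted p-values under 0.05 were found for 3 of the 25 (3.52% of all genes) and non-overlapping groups for 2 (2.43% of all genes), and none passed after adjustment. Tnf was then higher after P. gingivalis, at -1.22 ± 0.10 (SD, n = 4) in controls and -0.85 ± 0.08 after P. gingivalis, a difference of 0.37 (SE 0.08, 95% interval 0.19 to 0.54, unadjusted p = 0.0011, adjusted p = 0.99994). That difference rests on the brighter Tnf probe alone, as the other stayed below the background mark on all 8 arrays. Tnfsf13b was lower, at -3.51 ± 0.16 against -3.99 ± 0.06 (SD, n = 4), a difference of -0.48 (SE 0.09, unadjusted p = 0.00057, adjusted p = 0.99994). The dimmer Tnfsf13b probe went the other way, with a difference of 0.51 (SE 0.15, unadjusted p = 0.0085). Tnfsf15 differed by -0.28 (SE 0.11, unadjusted p = 0.038).

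The members named under the scanner-file labels stood nearer to 0 with the value table's grouping. Cd27 was at 0.02 (SE 0.28), Tnfrsf12a at -0.25 (SE 0.26), Tnfrsf1a at -0.003 (SE 0.08), Tnfrsf10b at 0.07 (SE 0.13) and Tnfrsf22 at 0.21 (SE 0.13). With the values of the value table in place of the scanner signals, and its own labels, 4 of 24 tested members had an unadjusted p under 0.05, against 3.28% of all genes. There Tnf differed by 0.30 (unadjusted p = 0.0019) and Tnfsf13b by -0.26 (unadjusted p = 0.0010).

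The 4 arrays on which both sources agree are controls 1 and 2 and P. gingivalis 3 and 4. On them 8 of the 25 members had an unadjusted p under 0.05, against 8.1% of all genes, and none passed after adjustment. Groups did not overlap for 13 of the 25, against 44% of all genes. Cd27 differed by 0.65 (SE 0.11, unadjusted p = 0.0038) and Tnfrsf12a by -0.81 (SE 0.18, unadjusted p = 0.0095). Tnf differed by 0.28 on its brighter probe (SE 0.10, unadjusted p = 0.038) and Tnfsf13b by -0.44 (SE 0.12, unadjusted p = 0.021). These arrays share neither slide row nor slide column between groups, and with 2 against 2 the spread of each gene leans on the array-wide estimate.

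**Figure D4:**
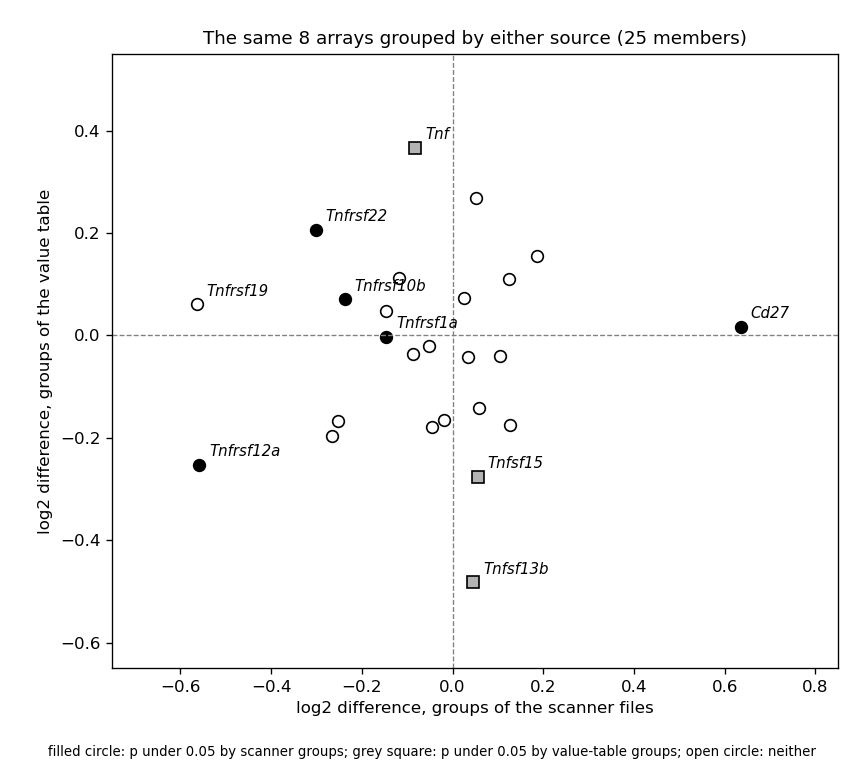
Each point is 1 of the 25 tested members, with its log2 difference under the groups of the scanner files on the x axis and under the groups of the value table on the y axis. The 5 filled circles have an unadjusted p under 0.05 on the x axis (Cd27 at 0.64, Tnfrsf12a at -0.56) and the 3 grey squares on the y axis (Tnf at 0.37, Tnfsf13b at -0.48, Tnfsf15 at -0.28).

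Genes through which the receptors signal were better detected than the family itself. All 40 genes of a list of adaptors, kinases, caspase regulators, ubiquitin enzymes and sheddases were tested, 19 higher and 21 lower, with a median difference of -0.018. An unadjusted p under 0.05 was found for 7, all lower, against 5.83% of all genes on that side. None passed after adjustment. After normexp the counts were 3 higher and 9 lower, where 26.6% of all genes were called in either direction, and with the value table's grouping the count was 1, lower, where 3.52% were. Both counts lie close to the share over all genes.

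Casp8, the caspase that death receptors activate, had the lowest p at -0.26 (SE 0.07, unadjusted p = 0.0065, adjusted p = 0.33). Traf2, the adaptor that links TNF receptors to NF-kappaB, was at 2.39 ± 0.05 in controls and 2.19 ± 0.05 (SD, n = 4) after P. gingivalis, a difference of -0.20 (SE 0.06, unadjusted p = 0.0076, adjusted p = 0.33). Tnfaip3 (A20, the ubiquitin-editing inhibitor of NF-kappaB and one of its targets) differed by -0.37 (SE 0.11, unadjusted p = 0.0082, adjusted p = 0.34). In all 3 every P. gingivalis array was below every control. After normexp Casp8 stood at -0.11 and Tnfaip3 at -0.17, the latter with overlapping groups, and in the value table with columns matched to arrays Traf2 was at -0.12 with an unadjusted p of 0.10. Under the groups of the value table Casp8, Traf2 and Tnfaip3 stood at -0.05, -0.06 and -0.11. The others under an unadjusted p of 0.05 were Ripk3, Chuk, Cflar and Rhbdf2, between -0.42 and -0.19, and Ripk3 turned to 0.05 after normexp.

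**Figure D5:**
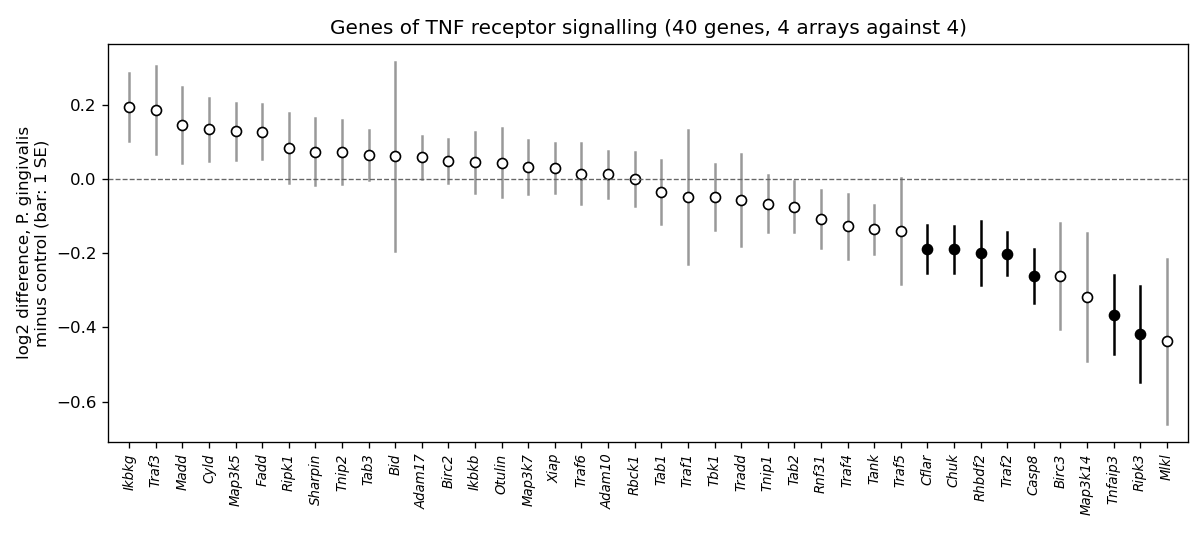
The 40 signalling genes are ordered by log2 difference (P. gingivalis minus control, y axis), with bars of 1 SE from limma. The 7 filled points, Ripk3, Tnfaip3, Casp8, Traf2, Rhbdf2, Chuk and Cflar, have an unadjusted p under 0.05 and lie between -0.42 and -0.19, although Ripk3 stood at 0.05 after normexp, and 19 of the 40 lie above 0.

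Markers of other cell types in muscle were not level between the groups either. Of 7 macrophage markers 6 were higher, 3 of them with an unadjusted p under 0.05 (Csf1r 0.35, Itgam 0.18, Cd163 0.64), against 4.86% of all genes on that side. The sum of the 7 markers was 24.7 to 26.8 times the 75th percentile in controls and 27.4 to 33.2 after P. gingivalis. With the value table's grouping 2 of these were higher. Of 5 fibroblast markers all were higher, led by Lum (0.65), Col1a1 (1.01) and Dpt (0.36), with sums of 129 to 162 and 153 to 175, and 3 were higher under the groups of the value table. Of 5 endothelial markers all were lower, led by Kdr (-0.59), Vwf (-0.22) and Cdh5 (-0.05), with sums of 10.3 to 13.3 and 9.09 to 11.1, although 1 was higher after quantile normalization and all 5 under the groups of the value table. Of 6 tested neutrophil markers 5 were lower, and their sums were 52.2 to 59.5 and 45.3 to 53.3, although 3 (Ly6g, Mpo and Elane) were higher after normexp. Elane had the lowest p of the 6 and was higher, at 0.36 (unadjusted p = 0.00195), with groups that did not overlap, and at 0.27 after normexp. S100a9 was at -2.93 (unadjusted p = 0.0061) with overlapping groups. It was at -1.83 after normexp and -1.06 under the groups of the value table (unadjusted p = 0.42). S100a8 read below the background mark on 2 of the 4 P. gingivalis arrays and on no control, so its fitted difference of -3.42 rests partly on readings below that mark. It stood at -1.26 after normexp and -1.64 under the groups of the value table (unadjusted p = 0.28). Of 5 adipocyte markers 3 were higher (Adipoq 0.18, Lep 0.11, Cidec 0.01) and 2 lower (Fabp4 -0.24, Plin1 -0.66). Fabp4 had an unadjusted p of 0.020, and the adipocyte sums were 82.9 to 97.7 and 70.1 to 80.9. Such sums are linear, so the brightest marker weighs most. The adipocyte sum rests mostly on Fabp4 (level 6.47 in controls). The fibroblast sum rests mostly on Dcn (7.04, difference 0.13) and the neutrophil sum on Csf3r (5.71, difference -0.15). Satellite cell sums were 0.637 to 0.977 and 0.569 to 0.715 (Chrdl2 -0.45), and sums of the 2 Schwann cell markers reported were 0.534 to 0.593 and 0.534 to 0.602 (Sox10 0.08). Of 4 natural killer cell markers only Klrb1c was tested (0.38, SE 0.48), and Ncr1 stayed below the background mark. The part of cell content in the members' differences was not tested.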

How the data were processed

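Total RNA (200 ng per sample) was labelled with Cy3 and hybridised to Agilent one-colour arrays, per the labels' protocols. The authors deposited scanner output with processed intensity values per spot. Its software was Agilent Feature Extraction, version 11.1 per the submitters' processing notes and 11.0.1.1 per the file headers. They also deposited a table of log2 values whose normalization no label or header gives. Its column medians were 7.36 to 7.37, and it was used only for alternatives. Here log2 intensity minus the 75th percentile over 59305 non-control spots was taken per array, outlier spots (0.108% to 0.218%) were left out, and spots of a probe were averaged. Probes well above background on at least 4 of 8 arrays (31649) went into lmFit and eBayes of limma 3.58.1 (R 4.3.3), 4 against 4 with no covariate, with Benjamini-Hochberg adjustment over those probes. Every adjusted or unadjusted p in the text for a gene comes from limma, and from that fit unless another setting or grouping is named beside it. A gene is shown by its brightest tested probe. The number of arrays limits the precision.

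Members named with values on each array are those with an unadjusted p under 0.05 or non-overlapping groups, and a list of central ligands and receptors. Tnfsf13b met that rule only under the groups of the value table, and Tnfrsf19 only on its dimmer probe. Both were shown with their values known. Of the other lists the 3 genes of lowest p lead. The members and lists were chosen with earlier results of these data known. A gene each of the B cell and Schwann cell marker lists is not reported here and was left out of their counts and sums, after its values had been seen. Same-numbered arrays did not deviate together (correlations of 0.0069 to 0.063), so numbers were not taken as pairs. Alternatives were quantile normalization, normexp with an offset of 50, other filters on dim probes, a variance trend, a replicate block, leaving out each array, probe means, the value table, and the percentile over distinct probes, the last added after seeing the data.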

Additional observations from a re-analysis of the deposited data

Results flagged for a closer look

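Among 50 groups of 4 arrays (25 tested members in either group), 2 held an array that stood apart from its group by Dixon's ratio at the 95% level, a number that about 1 in 20 groups would give by chance. Ltbr was lowest on P. gingivalis 3, at 1.62 against 1.87 to 1.90 on the other 3 arrays. Tnfsf12 was highest on control 3, at -1.10 against -1.44 to -1.39 on the other 3 arrays.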

How the results depend on the processing

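No member passed an adjusted p of 0.05 in limma under any alternative run. Members with an unadjusted p under 0.05 numbered 5 (10.7% of all genes), against 3 with the replicate block (9.55%). They numbered 3 with the percentile over distinct probes (10.5%), added after seeing the data, and 3 under the groups of the value table (3.52%). On the arrays that both sources group alike there were 8 (8.1%). When each array was left out there were 2 to 6 (8.11% to 11.8%), with 2 without control 1. Members whose groups did not overlap numbered 2 (7.07% of all genes), against 1 with probe means (6.52%). In the value table with columns matched to arrays they numbered 0 (6.92%). They numbered 13 of 25 on the arrays grouped alike (44%), and 2 to 5 when each array was left out (10.1% to 13.3%). Signalling genes with an unadjusted p under 0.05 numbered 7 (10.7% of all genes), against 12 after normexp (26.6%). They numbered 1 in the value table with its own labels (3.28%) and 1 under its groups (3.52%). The replicate number was not taken as a pairing.

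Differences that changed sign were as follows, and their cause was not tested. Normexp moved Tnfrsf13b to 0.0274, Tnfrsf22 to 0.0325, Tnfsf8 to 0.10 and Tnfsf9 to 0.10. Quantile normalization moved Tnfsf8 to 0.0103. Probe means moved Tnfrsf1b to -0.0542 and Tnfsf10 to -0.19. In the value table with matched columns Tnfrsf11a stood at 0.0309, Tnfrsf14 at -0.0288, Tnfrsf1b at -0.0515, Tnfrsf25 at -0.00882, Tnfsf8 at 0.0392 and Tnfsfm13 at 0.000382. In the value table with its own labels Cd27 stood at -0.0498, Ltbr at -0.0832, Tnf at 0.30, Tnfrsf10b at 0.0735, Tnfrsf14 at -0.0919, Tnfrsf22 at 0.12, Tnfrsf23 at 0.11, Tnfsf10 at -0.19 and Tnfsf13b at -0.26. Tnfrsf1a was represented there by its dimmer probe, at 0.052, a probe that stood at 0.01 under the scanner-file groups and so kept its sign. With matched columns the same probe changed sign, to -0.0436. Tnfrsf21 was also represented by its dimmer probe, at 0.01 under the scanner-file groups. It stood at -0.0774 in the value table with its own labels and -0.0248 with matched columns. Under the groups of the value table Ltbr stood at -0.14, Tnf at 0.37, Tnfrsf10b at 0.0704, Tnfrsf14 at -0.042, Tnfrsf19 at 0.061, Tnfrsf21 at 0.0483, Tnfrsf22 at 0.21, Tnfrsf23 at 0.11, Tnfsf10 at -0.18, Tnfsf13b at -0.48, Tnfsf13os at -0.0413 and Tnfsf15 at -0.28. On the arrays grouped alike Ltbr stood at -0.0848, Tnf at 0.28, Tnfrsf14 at -0.00776, Tnfsf10 at -0.0494, Tnfsf13b at -0.44 and Tnfsf15 at -0.22. When each array was left out, sign changes occurred within -0.16 to 0.0147 for Tnf, -0.17 to 0.0436 for Tnfrsf11a, -0.0704 to 0.12 for Tnfrsf14, -0.0217 to 0.10 for Tnfrsf1b, -0.26 to 0.0674 for Tnfrsf23, -0.0628 to 0.14 for Tnfrsf25, -0.0933 to 0.15 for Tnfsf13b, -0.043 to 0.19 for Tnfsf15, -0.0725 to 0.055 for Tnfsf8, -0.20 to 0.0805 for Tnfsf9 and -0.0969 to 0.0064 for Tnfsfm13. Signal near background limits Tnfsf15, Cd27, Tnfsf9 and Tnfsf13b, whose levels lie close to the dimmest probes called above it (-5.23 to -4.92). Tnfrsf22, at -3.17 in controls and -3.47 after P. gingivalis, lay near the level of Cd27 (-4.05 and -3.42), so the same limit holds for it.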

Other observations

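Family genes that do not carry a Tnfsf or Tnfrsf name on the array were looked at separately. Of 11 listed, 7 were tested, 1 higher and 6 lower, with a median difference of -0.14. An unadjusted p under 0.05 was found for 1 on the higher and 1 on the lower side, against 4.86% and 5.83% of all genes. Eda, the ectodysplasin ligand, differed by 0.18 (SE 0.06, unadjusted p = 0.023, adjusted p = 0.39), and Eda2r, the X-linked ectodysplasin receptor, by -0.60 (SE 0.24, unadjusted p = 0.033, adjusted p = 0.42). In both genes the groups did not overlap (7.07% of all genes), and under the groups of the value table they stood at -0.04 and -0.36. Ngfr, the p75 neurotrophin receptor, differed by -0.51 (SE 0.27, unadjusted p = 0.094). The ligands Cd40lg, Fasl and Cd70 (the partner of Cd27) and the receptor Edar stayed below the background mark on all 8 arrays.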
